A study of Mus musculus with 12 samples.

Results

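The Fc receptor genes described here are *Fcgr1*, *Fcgr2b*, *Fcgr3*, *Fcgr4*, *Fcer1g* and *Fcgrt*, which are 6 of the 43278 gene symbols measured in mouse peritoneal macrophages (PMφs). They were chosen by name, and all 6 are in the table and had values high enough to be tested in every comparison. The study sequenced poly(A) RNA of 12 cultures, 3 in each of 4 groups, namely Control PMφs, PMφs cultured with 100 µg/ml human medium oxidized low-density lipoprotein (oxLDL) for 24 h, PMφs given 10 ng/ml ultrapure LPS, and PMφs given oxLDL and then LPS. All groups came from wild-type C57BL/6J mice of both sexes, 8 to 12 wk of age. The mice had received 1 ml of aged 4% thioglycolate 4 d before lavage, and adherent cells were used after 18 h in culture, so every group is an elicited population drawn into the cavity by an irritant. Cells of several littermates were pooled and divided among the 4 groups, and how long LPS was present is not stated for these libraries. The comparisons ask what LPS did to these genes with and without prior oxLDL, and what oxLDL did with and without LPS.

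Fc receptors bind the constant region of antibodies and let a phagocyte take up and respond to antibody-coated particles. *Fcgr1*, *Fcgr3* and *Fcgr4* encode activating receptors for IgG, and each needs the FcR gamma chain, encoded by *Fcer1g*, which carries the ITAM, an activation motif that recruits the kinase SYK. *Fcgr2b* encodes the inhibitory IgG receptor, whose ITIM, an inhibition motif, recruits the lipid phosphatase SHIP1, so activating and inhibitory receptors on the same macrophage set how strongly an immune complex acts. *Fcgrt* encodes the heavy chain of the neonatal Fc receptor, an intracellular receptor that pairs with beta-2-microglobulin and protects IgG and albumin from degradation. On GRCm38, 4 of the genes lie within 276 kb of chromosome 1. These are *Fcgr2b* (chr1:170958617-170976547, minus strand), *Fcgr4* (chr1:171018920-171029761, plus strand), *Fcgr3* (chr1:171051174-171064935, minus strand) and *Fcer1g* (chr1:171229572-171234365, minus strand). *Fcgr1* lies on chromosome 3 (chr3:96282909-96293969, minus strand) and *Fcgrt* on chromosome 7 (chr7:45092990-45103851, minus strand).

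Values are normalized counts, which are the authors' read counts per gene divided by a factor for each library and rounded. A fold change is given as a difference of log2(normalized count + 1) with its SE, and a gene was called where the limma test, adjusted by the Benjamini-Hochberg method over all genes tested, gave an adjusted p below 0.1. Normalized counts summed to 17152972 to 17709731 in the Control libraries, 17440329 to 17444102 in the oxLDL libraries, 22590678 to 26384551 in the LPS libraries and 22071853 to 23346854 in the oxLDL+LPS libraries. Giving every library the same total moved the median gene by −0.48 in LPS against Control and by −0.38 in oxLDL+LPS against oxLDL on the log2 scale, and by less than 0.1 in the comparisons of oxLDL. With the same total, the called genes turned from 4093 higher and 3946 lower to 2210 higher and 7200 lower in LPS against Control, and from 3633 higher and 3397 lower to 2055 higher and 6616 lower in oxLDL+LPS against oxLDL. The labelled cell type was plain in its markers, since *Lyz2* was between 157225 and 215646 and *Cd68* between 35765 and 51371 in the 12 libraries. Libraries with the same replicate number deviated together, so fits with the replicate number as a block are given where they change a call.

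In Control PMφs the FcR gamma chain was the most abundant of the 6 transcripts per length. *Fcer1g* stood at 8791 ± 1271 normalized counts per kb of merged exons (SD, n = 3), followed by *Fcgr3* at 3040 ± 326, *Fcgr4* at 1187 ± 183, *Fcgr2b* at 872 ± 304, *Fcgr1* at 271 ± 81.8 and *Fcgrt* at 239 ± 31.7. The library ranges of *Fcgr4* and *Fcgr2b* overlapped, as did those of *Fcgr1* and *Fcgrt*, while every other neighbor in this order was separated. The oxLDL group had the same first 4 genes, and only the order of *Fcgr1* and *Fcgrt*, whose ranges overlapped, was exchanged. In the LPS group *Fcer1g* was again first at 20907 ± 3638 per kb and *Fcgrt* last at 172 ± 33.1 per kb, but *Fcgr2b* (2294 ± 334), *Fcgr4* (2189 ± 708), *Fcgr1* (2090 ± 1135) and *Fcgr3* (1681 ± 235) formed a middle set in which every neighbor overlapped the next. The oxLDL+LPS group also had *Fcer1g* first (19196 ± 2853 per kb), *Fcgrt* last (173 ± 27.4 per kb) and 4 overlapping genes between them, from *Fcgr4* at 1606 ± 295 to *Fcgr2b* at 1428 ± 460 per kb. These ranks depend on the length that is used, because much of the *Fcgr2b* gene model is noncoding. Per kb of the longest coding sequence, *Fcgr2b* held rank 2 in LPS and oxLDL+LPS and rank 3 in Control and oxLDL, and *Fcer1g* remained first and *Fcgrt* last in every group.

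LPS raised *Fcgr1*, *Fcgr2b*, *Fcer1g* and *Fcgr4* and lowered *Fcgr3* and *Fcgrt* in PMφs without oxLDL. All 6 genes were called and none of the 6 had overlapping groups, but most genes in these cells changed with LPS. Of 13023 genes tested in LPS against Control, 61.7% were called, 31.4% as higher and 30.3% as lower, and in 63.2% the Control and LPS libraries did not overlap. A count of 6 of 6 therefore says little about these genes as a group, and the sizes and directions of the single genes carry the comparison. In bulk RNA, fewer cells that express a gene and less of its RNA per cell cannot be told apart.

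*Fcgr1*, which encodes the high-affinity IgG receptor, had the largest change of the 6. Its normalized count was 688, 496 and 919 in Control libraries 1, 2 and 3 and 8081, 2264 and 5890 in LPS libraries 1, 2 and 3. Every LPS library was above every Control library, and the replicate 2 library was the lowest in both groups. The difference was 2.81 ± 0.45 on the log2 scale (7-fold, adjusted p = 0.00122 by limma, higher in 3 of 3 replicate numbers). The size of the change varied between replicate numbers, from 2.19 in number 2 to 3.55 in number 1.

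*Fcgr2b*, the inhibitory receptor gene, rose as well. Its normalized count was 3713, 7038 and 4389 in the Control libraries and 11085, 14710 and 14051 in the LPS libraries, so replicate 2 was the highest in both groups, the reverse of *Fcgr1*. The difference was 1.44 ± 0.24 on the log2 scale (2.71-fold, adjusted p = 0.00138 by limma), with 1.58, 1.06 and 1.68 in replicate numbers 1, 2 and 3. *Fcer1g*, the shared signaling chain of the activating receptors, went from 6491, 8690 and 7869 to 14702, 19320 and 20797. Its change was the most even of those that rose, at 1.18, 1.15 and 1.40 in the 3 replicate numbers, and the difference was 1.24 ± 0.17 on the log2 scale (2.37-fold, adjusted p = 0.000501 by limma).

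*Fcgr4*, an activating receptor for IgG2a and IgG2b in mice, rose less. It was at 1518, 1249 and 1706 normalized counts in the Control libraries and at 3346, 1728 and 3176 in the LPS libraries, and the lowest LPS library, replicate 2, was barely above the highest Control library. The difference was 0.83 ± 0.25 on the log2 scale (adjusted p = 0.0244 by limma), and with the same total in every library it was 0.35 and no longer called (adjusted p = 0.265 by limma). For this gene alone of the 6, the call in LPS against Control was lost with the other scaling.

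*Fcgr3*, the low-affinity activating receptor gene that was the most abundant receptor per length in Control PMφs, went the other way. Its normalized count was 4750, 5204 and 5876 in the Control libraries and 3328, 2511 and 2916 in the LPS libraries, and every LPS library was below every Control library. The difference was −0.86 ± 0.13 on the log2 scale (adjusted p = 0.000961 by limma, lower in 3 of 3 replicate numbers), and −1.34 with the same total in every library. *Fcgrt* was at 520, 430 and 560 in the Control libraries and 392, 282 and 411 in the LPS libraries. The groups did not overlap, but the gap between the highest LPS and the lowest Control library was small. The difference was −0.49 ± 0.17 (adjusted p = 0.0461 by limma), and leaving out LPS replicate 2 ended the call (−0.32, adjusted p = 0.104 by limma), as did leaving out either Control replicate 1 (−0.46, adjusted p = 0.12) or 3 (−0.41, adjusted p = 0.141). With the replicate block and all 3 replicate numbers, *Fcgrt* was called (adjusted p = 0.00483 by limma).

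**Figure D1:**
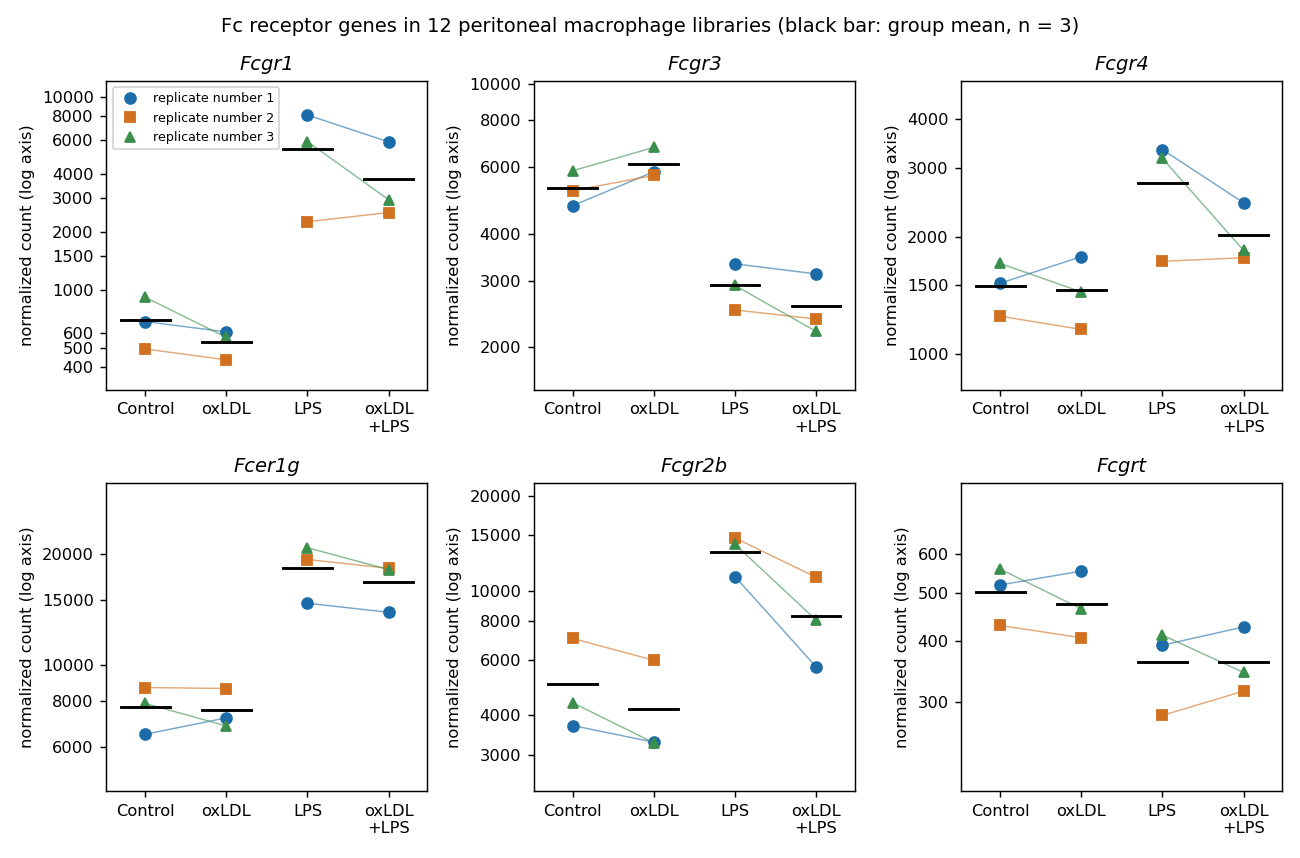
Normalized counts (log axis) of the 6 Fc receptor genes in each library, by group, with a marker for each replicate number, lines that join oxLDL to its partner with the same replicate number and LPS state, and a black bar for the group mean (n = 3). *Fcgr1*, *Fcgr2b*, *Fcgr4* and *Fcer1g* were higher with LPS and *Fcgr3* and *Fcgrt* lower, with Control and LPS libraries apart for all 6 genes, and *Fcgr2b* fell with oxLDL on every line.

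In PMφs that had been cultured with oxLDL first, LPS moved the 6 genes in the same directions. All 6 were called in oxLDL+LPS against oxLDL, where 54.5% of 12900 genes were called, 28.2% as higher and 26.3% as lower. The groups did not overlap for *Fcgr1*, *Fcgr3* and *Fcer1g*, against 57.6% of all genes tested. *Fcgr1* was at 608, 436 and 570 in the oxLDL libraries and 5865, 2524 and 2945 in the oxLDL+LPS libraries, a difference of 2.72 ± 0.31 (adjusted p = 0.000325 by limma). *Fcer1g* was at 7191, 8636 and 6836 and then 13899, 18290 and 18142, a difference of 1.15 ± 0.15 (adjusted p = 0.00061 by limma). For both genes the lowest library with LPS lay well above the highest without it.

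*Fcgr3* fell from 5839, 5711 and 6779 normalized counts in the oxLDL libraries to 3129, 2375 and 2203 in the oxLDL+LPS libraries, a difference of −1.26 ± 0.14 (adjusted p = 0.000359 by limma). *Fcgr2b* was at 3286, 5994 and 3271 in the oxLDL libraries and 5714, 11032 and 8059 in the oxLDL+LPS libraries. Replicate 1 with both agents was below replicate 2 with oxLDL alone, so the groups overlapped, although each library rose against its partner. The difference was 0.99 ± 0.30 (1.99-fold, adjusted p = 0.0311 by limma). It was not called with the same total in every library (0.60, adjusted p = 0.115) or without oxLDL replicate 1 (0.85, adjusted p = 0.105), both by limma, and with the replicate block it was (adjusted p = 0.000517 by limma).

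*Fcgr4* and *Fcgrt* had the smallest differences and overlapping groups. *Fcgr4* was at 1777, 1155 and 1442 in the oxLDL libraries and 2443, 1765 and 1843 in the oxLDL+LPS libraries (0.47 ± 0.18, adjusted p = 0.071 by limma), and *Fcgrt* was at 555, 406 and 465 and then 427, 316 and 345 (−0.39 ± 0.16, adjusted p = 0.0854 by limma). With the replicate block both were called, *Fcgr4* at adjusted p = 0.00295 and *Fcgrt* at adjusted p = 0.00978 by limma. In 3 of 3 replicate numbers *Fcgr4* was higher and *Fcgrt* lower. Both calls were lost in several of the other fits, with adjusted p up to 0.729 for *Fcgr4* and up to 0.252 for *Fcgrt* by limma. The *Fcgr4* difference was as low as 0.08 among these fits. *Fcgr4* lost its call without oxLDL replicate 2 (0.32) or 3 (0.48) or oxLDL+LPS replicate 1 (0.33), and *Fcgrt* without oxLDL replicate 1 (−0.27) or 3 (−0.40) or oxLDL+LPS replicate 2 (−0.30) or 3 (−0.36).

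**Figure D2:**
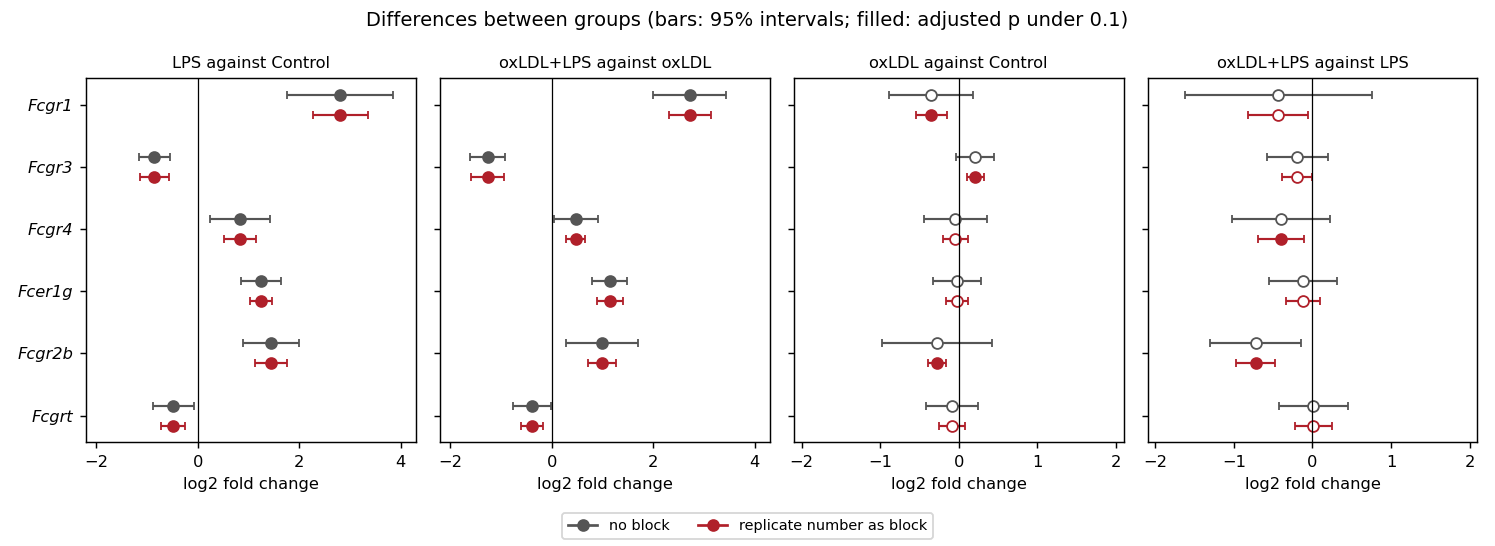
Log2 fold changes of the 6 Fc receptor genes in the 4 comparisons, with 95% intervals, from limma without a block (gray) and with the replicate number as a block (red), where filled points have an adjusted p under 0.1. All 6 genes were called for LPS in both fits, and for oxLDL the blocked fit alone made calls, with *Fcgr2b* at −0.28 without LPS and −0.72 with it.

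The upstream sequences are shown for the 3 activating receptor genes because they moved in different directions with LPS. Each is the 250 bases before the RefSeq start on GRCm38.p6, read 5′ to 3′ on the gene's strand, and capitals mark matches on either strand to the GAS letters TTCNNNGAA, a motif of the interferon-gamma response, the ISRE core (GAAA, any 2 bases, GAAA) bound by interferon regulatory factors, or the core GAGGAA of PU.1 sites. Of 32851 such windows of all genes, 7.02% held the GAS letters, 2.98% the ISRE core and 23.3% the PU.1 core. *Fcgr1* held a GAS match that begins 109 bases upstream and a PU.1 core at 55 bases. *Fcgr4* held an ISRE match that begins 73 bases upstream and a PU.1 core at 22 bases, and *Fcgr3*, which has a second listed start close by, held only the PU.1 core. The windows of *Fcgr2b*, *Fcer1g* and *Fcgrt* held none of these letters. A match describes the letters, and binding was not measured.
Fcgr1 (chr3:96293970-96294219, minus strand, intergenic): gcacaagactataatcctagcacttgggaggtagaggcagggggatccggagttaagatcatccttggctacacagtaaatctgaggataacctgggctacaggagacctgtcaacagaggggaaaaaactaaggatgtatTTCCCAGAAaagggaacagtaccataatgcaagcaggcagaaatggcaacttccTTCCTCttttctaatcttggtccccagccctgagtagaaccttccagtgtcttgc
Fcgr3 (chr1:171059404-171059653, minus strand, within the longer Fcgr3 gene model): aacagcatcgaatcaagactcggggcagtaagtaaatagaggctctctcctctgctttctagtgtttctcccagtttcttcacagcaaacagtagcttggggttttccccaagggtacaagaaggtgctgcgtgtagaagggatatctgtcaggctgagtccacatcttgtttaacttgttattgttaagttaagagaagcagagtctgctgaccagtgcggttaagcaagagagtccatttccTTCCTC
Fcgr4 (chr1:171018676-171018925, plus strand, ending in the first exon): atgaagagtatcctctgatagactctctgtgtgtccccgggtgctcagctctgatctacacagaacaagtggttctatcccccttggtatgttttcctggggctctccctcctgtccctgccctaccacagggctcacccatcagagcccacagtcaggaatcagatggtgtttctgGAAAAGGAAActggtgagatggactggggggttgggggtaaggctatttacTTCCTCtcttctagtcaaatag

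The factors that bind such letters and the cytokine receptors known to act on Fc receptor genes moved with LPS too. Of 14 listed, all were tested, 9 were higher and 2 lower in LPS against Control, with a median of 0.94 on the log2 scale against −0.000967 over all genes. Of all genes, 31.4% were called as higher and 30.3% as lower in this comparison. *Irf1*, an interferon regulatory factor, rose by 5.11 ± 0.20 on the log2 scale. *Stat3*, *Ifnar1* and *Ifnar2* rose by 1.55, 1.73 and 1.65, and *Cebpa*, a myeloid transcription factor, was at −3.15 ± 0.14. In oxLDL+LPS against oxLDL, 8 of the 14 were higher and 3 lower, with *Irf1* at 4.96 and *Spi1*, which encodes PU.1, at 0.91 ± 0.08. There, 28.2% of all genes were called as higher and 26.3% as lower. With the same total in every library the counts were 7 higher and 3 lower in the first comparison and 7 and 4 in the second.

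*Fcgr2b* and *Fcgr3*, which moved in opposite directions under LPS, share sequence. A read that lies wholly within a shared stretch cannot be assigned by sequence alone. The longest run common to their main transcripts is 129 bases of coding sequence across exons 3 and 4 of each gene (chr1:170966674-170968081 in *Fcgr2b* and chr1:171054167-171057792 in *Fcgr3*, both minus strand, with the intron between).
Fcgr2b and Fcgr3: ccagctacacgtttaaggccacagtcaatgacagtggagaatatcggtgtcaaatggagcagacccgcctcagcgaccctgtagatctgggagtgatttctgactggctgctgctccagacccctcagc
Of all 100-base windows, 44 were shared, which is 1.28% of the *Fcgr2b* transcript and 3.53% of the *Fcgr3* transcript. The study's methods give paired-end reads that were longer, before trimming, than these windows and than the run of 129 bases. A full-length read therefore does not lie wholly within that run. Counting other genes too, 122 windows (3.54%) of the *Fcgr2b* transcript were shared. The transcripts of *Fcgr1*, *Fcgr4*, *Fcer1g* and *Fcgrt* shared no such window with any other gene. How shared reads were counted between the 2 genes was not tested.

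The balance of activating to inhibitory receptor transcripts is given as the log2 ratio of normalized counts to *Fcgr2b* in each library, not adjusted for length, so only its change between groups is read. For *Fcgr3* the ratio was 0.36, −0.44 and 0.42 in Control libraries 1, 2 and 3 and −1.74, −2.55 and −2.27 in the LPS libraries, which did not overlap. With oxLDL it was 0.83, −0.07 and 1.05, and with oxLDL and LPS it was −0.87, −2.22 and −1.87. Every library with oxLDL had a higher *Fcgr3* ratio than its partner without it, whether or not LPS was given. The share of *Fcgr2b* in the sum of both genes was 48.0% ± 8.20 in Control, 39.9% ± 9.93 in oxLDL, 81.7% ± 4.36 in LPS and 75.1% ± 9.31 in oxLDL+LPS (SD, n = 3).

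The *Fcgr1* ratio was higher with LPS in each replicate number, where the *Fcgr3* ratio was lower, although the Control and LPS libraries overlapped. It was −2.43, −3.83 and −2.26 in the Control libraries, −2.43, −3.78 and −2.52 in the oxLDL libraries, −0.46, −2.70 and −1.25 in the LPS libraries, and 0.04, −2.13 and −1.45 in the oxLDL+LPS libraries. Replicate 2 had the lowest ratio in each group for all 3 activating genes. The *Fcgr4* ratio was −1.29, −2.49 and −1.36 in the Control libraries, −0.89, −2.38 and −1.18 in the oxLDL libraries, −1.73, −3.09 and −2.15 in the LPS libraries and −1.23, −2.64 and −2.13 in the oxLDL+LPS libraries. The groups overlapped, but in each of the 3 replicate numbers the *Fcgr4* ratio was lower with LPS and higher with oxLDL.

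**Figure D3:**
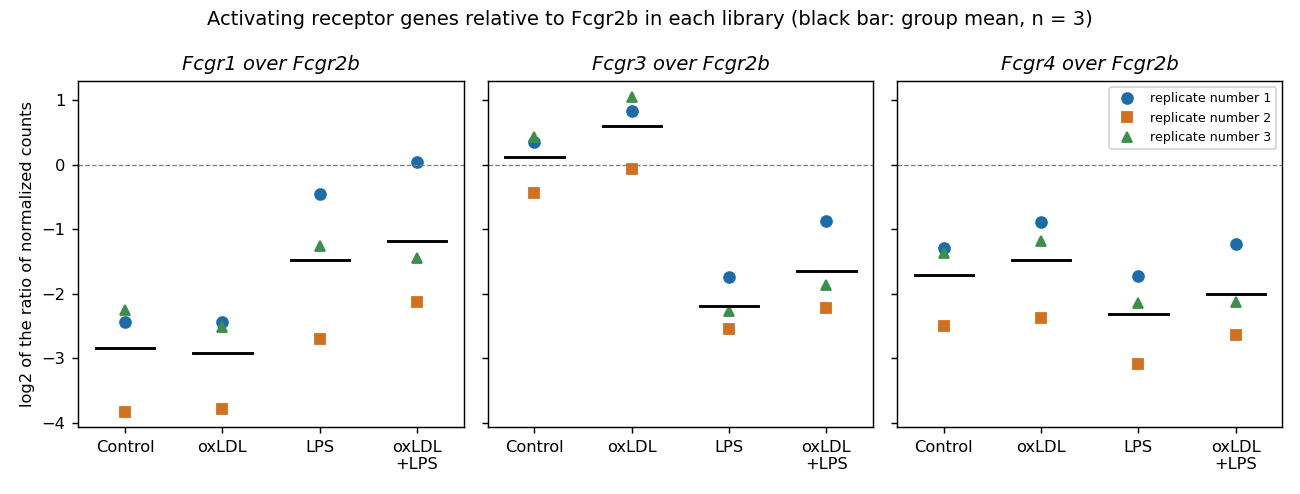
Log2 ratio of the normalized counts of *Fcgr1*, *Fcgr3* and *Fcgr4* to those of *Fcgr2b* in each library, by group, with a marker for each replicate number and a black bar for the group mean (n = 3). The *Fcgr3* ratio had a mean of 0.11 in Control and −2.18 in LPS, and the orange squares of replicate 2 are the lowest in every group.

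For oxLDL, some of the 6 genes were called with the replicate block and none without it. Without the block, limma called 0 of the 6 genes and 0.0% of 12751 genes in oxLDL against Control, where 381 genes had an unadjusted p under 0.05, and 0 of the 6 and 0.0% of 12786 genes in oxLDL+LPS against LPS, where 890 did. The groups overlapped for all 6 genes in oxLDL against Control, against 7.7% of genes that did not overlap. In oxLDL+LPS against LPS they did not overlap for *Fcgr2b* alone of the 6 (−0.72 ± 0.25, adjusted p = 0.698 by limma without the block), against 12.6% of all genes.

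With the replicate block, oxLDL against Control gave 1.8% of genes as higher and 2.92% as lower, and 3 of the 6 genes were called. *Fcgr2b* fell by 0.18, 0.23 and 0.42 in replicate numbers 1, 2 and 3, a difference of −0.28 ± 0.05 on the log2 scale (adjusted p = 0.0212 by limma). *Fcgr1* was at −0.35 ± 0.09 (adjusted p = 0.0749 by limma, lower in 3 of 3), with most of it in replicate number 3, at −0.69 against −0.18 and −0.19. *Fcgr3* was at 0.21 ± 0.05 (adjusted p = 0.0413 by limma, higher in 3 of 3), so the activating receptor gene that LPS lowered was raised by oxLDL. These calls depended on the replicate numbers kept. With the block, *Fcgr2b* alone was called without number 1, where 1.73% of all genes were called, 0 of the 6 without number 2 (1.12% of all genes), and *Fcgr2b* and *Fcgr3* without number 3 (10.3%). For *Fcgr4*, *Fcer1g* and *Fcgrt* the 95% intervals of the blocked difference were −0.21 to 0.12, −0.16 to 0.11 and −0.25 to 0.08, none of which was called.

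With LPS present, the blocked fit gave 4.42% of genes as higher and 8.74% as lower with oxLDL, and 2 of the 6 genes were called, both lower. *Fcgr2b* fell by 0.96, 0.42 and 0.80 in replicate numbers 1, 2 and 3, from 11085, 14710 and 14051 to 5714, 11032 and 8059 normalized counts. That is a difference of −0.72 ± 0.11 on the log2 scale, or 0.605-fold (adjusted p = 0.0094 by limma). *Fcgr4* was at −0.40 ± 0.13 (adjusted p = 0.0952 by limma) and was lower in 2 of 3 replicate numbers, with −0.45 and −0.78 in numbers 1 and 3 and 0.03 in number 2. *Fcgr1* was at −0.44 ± 0.17 and was not called (adjusted p = 0.158 by limma), with −0.46 and 0.16 in numbers 1 and 2 and a fall from 5890 to 2945 normalized counts in number 3. Replicate number 2 thus differed from the others for *Fcgr1* and *Fcgr4*, and without it the blocked fit called 4 of the 6 genes and 23.9% of all genes. Without number 1 it called 0 of the 6 and 0.579% of all genes, and without number 3 it called 0 of the 6 and 0.0%.

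*Fcer1g*, *Fcgr3* and *Fcgrt* were not called in oxLDL+LPS against LPS. *Fcer1g* was at −0.12 with a blocked 95% interval of −0.33 to 0.09, and *Fcgrt* was at 0.01 with an interval of −0.23 to 0.25. *Fcgr3* was at −0.19 (adjusted p = 0.211 by limma with the block) and was lower in 3 of 3 replicate numbers.

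Whether oxLDL changed the response to LPS was tested as an interaction, the LPS change with oxLDL minus the LPS change without it. Over all 12 libraries limma called 0 of the 6 genes and 0.0% of 13482 genes, with 418 at an unadjusted p under 0.05, and the block called 0 genes, with 967 under 0.05. A fit on the 3 differences within replicate numbers, chosen after the data were seen, called 1.58% of genes as higher and 2.39% as lower, among them *Fcgr2b* and *Fcgr3*. The *Fcgr2b* difference was −0.45 ± 0.10 (adjusted p = 0.0673 by limma), with −0.78, −0.18 and −0.38 in replicate numbers 1, 2 and 3. The *Fcgr3* difference was −0.40 ± 0.08 (adjusted p = 0.0505 by limma), with −0.39, −0.21 and −0.61. In that fit 0 of the 6 genes were called without number 1 (0.0519% of all genes) or number 3 (0.0%), and 4 were called without number 2 (14.8% of all genes).

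Other genes that bind antibody or pair with these receptors also moved in both directions. Of 13 Fc and immunoglobulin-binding genes outside the 6, 6 were tested, and 3 were higher and 1 lower in both LPS comparisons. Of all genes, 31.4% were called as higher and 30.3% as lower without oxLDL, and 28.2% and 26.3% with it. With the same total in every library, 3 of the list were higher and 2 lower without oxLDL, and 2 and 1 with it. *Trim21*, a cytosolic antibody receptor, rose by 3.84 ± 0.19 in LPS against Control (adjusted p = 3.15e-06 by limma) and by 3.46 ± 0.17 in oxLDL+LPS against oxLDL. *B2m*, the partner chain of the neonatal Fc receptor, rose by 1.06 ± 0.21 and 0.99 ± 0.21 while *Fcgrt* fell. *Fcrlb*, an intracellular Fc receptor-like gene, rose by 1.94 and *Fcrl1*, an Fc receptor-like gene of B cells, was at −2.80, but both had low values, with Control libraries at 25 to 108 for *Fcrlb* and 18 to 65 for *Fcrl1*. In the blocked fit of oxLDL+LPS against LPS, *Fcrlb* was lower by −1.05 ± 0.17 on the log2 scale (adjusted p = 0.0117 by limma).

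Among receptors that signal through the FcR gamma chain or a related adaptor, the C-type lectin genes stood out. Of 11 listed, 6 were tested in LPS against Control, with 2 higher and 1 lower (2 and 3 with the replicate block or with the same total in every library), and the median was −0.32 on the log2 scale. In oxLDL+LPS against oxLDL 7 were tested, with 2 higher and 4 lower. The shares of all genes were 31.4% higher and 30.3% lower in the first comparison, and 28.2% and 26.3% in the second. *Clec4e*, which encodes the glycolipid receptor Mincle, went from 301, 393 and 405 to 46359, 80326 and 62416 normalized counts, a rise of 7.40 ± 0.21. *Clec4d* rose by 1.31 ± 0.17 with LPS, and oxLDL raised it too, by 0.65 ± 0.08 without LPS (adjusted p = 0.00141 by limma with the block) and 0.68 ± 0.13 with LPS (adjusted p = 0.0165). *Clec4n*, which encodes the fungal receptor dectin-2, was higher with oxLDL in both blocked fits, by 0.95 ± 0.25 and 1.58 ± 0.27. Its values were low and uneven, with 87, 32 and 96 in Control against 99, 55 and 359 in oxLDL, where replicate 3 stood apart, and 60, 33 and 61 in LPS against 247, 50 and 268 in oxLDL+LPS. *Pira2*, an activating immunoglobulin-like receptor gene, was lower with LPS (−0.57) and lower with oxLDL in both blocked fits (−0.44 and −0.32). Without the block, 0 of this list were called for oxLDL. Of all genes, the blocked fits called 1.8% as higher and 2.92% as lower without LPS, and 4.42% and 8.74% with LPS. In either direction, the fit with LPS called 0.579% without replicate number 1, 23.9% without number 2 and 0.0% without number 3. *Tyrobp*, the adaptor DAP12 that is related to the gamma chain, was at −0.28 in oxLDL+LPS against oxLDL.

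On the deposited values, most of the kinases and adaptors downstream of the activating receptors were higher with LPS. Of 20, all were tested, and 13 were higher and 5 lower in LPS against Control, and 13 and 2 in oxLDL+LPS against oxLDL, with medians of 0.46 and 0.49. Of all genes, 31.4% were called as higher and 30.3% as lower in the first comparison, and 28.2% and 26.3% in the second. With the same total in every library the counts were 8 and 8, and 9 and 6, with medians of −0.02 and 0.10. The Src-family kinase genes *Src* (3.44 ± 0.21) and *Lyn* (2.21 ± 0.10), of a family that phosphorylates the ITAM, rose, as did *Lcp2* (3.46 ± 0.17), the adaptor SLP-76. *Syk*, the kinase that docks on the phosphorylated ITAM, went from 8341, 8968 and 8878 to 23187, 25729 and 30074, a rise of 1.59 ± 0.12 (adjusted p = 2.97e-05 by limma). *Lat2*, an adaptor in the membrane, was at −1.74 ± 0.12. In the blocked fit of oxLDL without LPS, 1 of the 20 was called as higher, *Pik3cd* (0.23), and 2 as lower, *Src* (−0.34) and *Pik3r1* (−0.21). Of all genes, that fit called 1.8% as higher and 2.92% as lower. With LPS, 0 were called as higher and 2 as lower, *Lcp2* (−0.40) and *Sos1* (−0.25), against 4.42% and 8.74% of all genes.

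The genes of inhibitory signaling split. Of 12 listed, 11 were tested, with 5 higher and 4 lower in LPS against Control and in oxLDL+LPS against oxLDL, where 31.4% and 30.3%, and 28.2% and 26.3%, of all genes were called in those directions. *Inpp5d*, which encodes SHIP1, the phosphatase that *Fcgr2b* recruits, went from 2697, 3265 and 3288 to 969, 571 and 643, a difference of −2.11 ± 0.20 (adjusted p = 7e-05 by limma), while the receptor itself rose. *Ptpn6*, which encodes the tyrosine phosphatase SHP-1, rose by 1.65 ± 0.12, and the ITIM receptor genes *Lilrb4* and *Pirb* rose by 1.58 and 1.07. With oxLDL and LPS, *Inpp5d* was at 1673, 661 and 1172, which is 0.62 ± 0.12 above LPS alone in the blocked fit (adjusted p = 0.019 by limma, higher in 3 of 3 replicate numbers). That fit called 3 of the list as higher, *Inpp5d*, *Dok1* (0.37) and *Dok2* (0.41), and 3 as lower, *Cbl* (−0.30), *Cd33* (−0.36) and *Pirb* (−0.39). Of all genes it called 4.42% as higher and 8.74% as lower. In either direction it called 0.579% without replicate number 1, 23.9% without number 2 and 0.0% without number 3. So *Fcgr2b* was lower and *Inpp5d* higher with oxLDL among LPS-treated PMφs, and in both replicate number 2 moved the least.

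**Figure D4:**
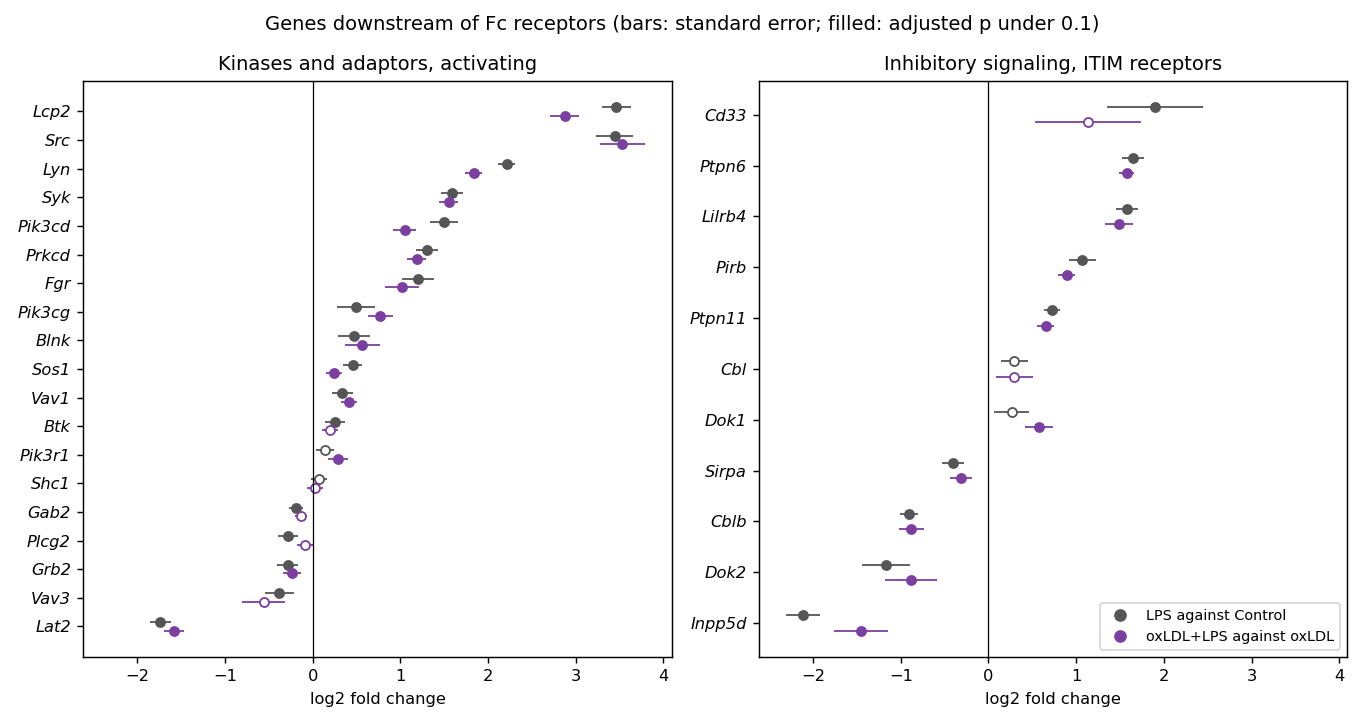
Log2 fold changes of tested genes of activating signaling (left) and inhibitory signaling (right) in LPS against Control (gray) and oxLDL+LPS against oxLDL (purple), with bars for the SE and filled points for an adjusted p under 0.1. *Lcp2* and *Src* lie above 2.8 in both comparisons, and *Inpp5d* lies at −2.11 and −1.45.

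Of 16 genes of the phagocytic cup and engulfment, 15 were tested, and 6 were higher and 3 lower in each LPS comparison, not far from the shares of all genes (31.4% higher and 30.3% lower without oxLDL, 28.2% and 26.3% with it), but 4 higher and 9 lower, and 3 and 9, with the same total in every library. *Myo10*, a myosin of filopodia, rose by 2.03 ± 0.12 in LPS against Control and by 2.00 ± 0.11 in oxLDL+LPS against oxLDL, and *Rac2* and *Crkl* rose by 1.01 and 1.10 in the first. *Gsn*, which encodes the actin-severing protein gelsolin, was at −0.99 and *Dock2*, an activator of Rac, at −0.92. In the blocked fit with LPS present, oxLDL raised *Gsn* by 0.28 ± 0.07 (adjusted p = 0.0548 by limma) and 0 of the other 14 were called. That fit called 4.42% of all genes as higher and 8.74% as lower.

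The genes whose pattern over the 12 libraries lay nearest to that of a member were found among 13482 genes by the root mean square difference of their centered log2 values. *Fcer1g* had close neighbors, *Ncf1*, a subunit of the phagocyte NADPH oxidase, at 0.09, *Slc25a25*, a mitochondrial carrier, at 0.10, and *Acsl5*, an acyl-CoA synthetase, at 0.11 log2 units. *Fcgr2b* lay 0.26 from *Furin*, a proprotein convertase, 0.26 from *Fam46c* and 0.27 from *E2f8*. *Fcgr1* had the most distant neighbors, with *Adgb* at 0.30, *Gbgt1* at 0.32 and *Pid1* at 0.33.

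Other cell types also carry Fc receptors, and of their markers some were at or near 0 and others were not. *Ms4a2* and *Fcer1a*, the other chains of the IgE receptor on mast cells and basophils, had at most 2 and 5 normalized counts in any library. The 10 mast cell and basophil markers summed to 99 to 114 in Control, 97 to 103 in oxLDL, 1035 to 2047 in LPS and 505 to 1471 in oxLDL+LPS, and *Hdc* alone was at 874 to 1957 in the LPS libraries. For B cells, in which *Fcgr2b* is the main Fc receptor, the 10 markers summed to 1514 to 2328 in Control and 852 to 1262 in LPS, most of it *Cd22*. Of the 6 B cell markers tested in LPS against Control, *Cd22* alone was called (−1.16 ± 0.28, adjusted p = 0.00908 by limma), and with the replicate block *Ms4a1* was called as higher, with 10, 6 and 12 in Control and 19, 11 and 24 in LPS. *Cd79a* was between 10 and 22 and *Ighm* between 111 and 274 in all libraries. Within each group, *Cd22* was highest in replicate 2, where *Fcgr2b* was also highest, with 2124 in Control and 1101 in LPS, and its part in the spread of *Fcgr2b* between replicate numbers was not tested. The NK cell marker *Ncr1*, the T cell marker *Cd3e*, the neutrophil marker *Ly6g* and the eosinophil markers *Prg2* and *Epx* had at most 2 normalized counts in any library. The 10 neutrophil markers summed to 71 to 260 over all libraries, of which *S100a8* made 31 to 248. The 6 eosinophil markers summed to 59 to 386, of which *Siglecf* made 55 to 383, with 315, 350 and 383 in Control and 99, 115 and 124 in LPS. The sums went with LPS from 7 to 9 to 136 to 157 for the 8 NK cell markers, nearly all *Klrk1*, and from 40 to 60 to 123 to 253 for the 8 T cell markers, mostly *Lck*. The 10 markers of mesothelial cells and fibroblasts summed to 5432 to 32024 and were lowest in replicate number 3 of every group, and their part in the differences between replicate numbers was not tested.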

How the data were processed

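Poly(A) RNA of 12 PMφ cultures, 3 per group, was sequenced. Per the labels and the study's methods, the authors used Trimmomatic (0.32) for trimming, STAR (2.5.1b) for alignment to GRCm38 (mm10), featureCounts with GENCODE genes for counting, and DESeq2 for testing. The deposited signal is whole numbers that behave as read counts scaled by a single factor in each library, then rounded; reads were not recovered, so count models were not used and depth enters only through the spread between libraries. The strand setting of the counting is not given in the sources used here. Of the symbols, 25 had become dates and 18273 were at 0 in every library.

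Groups were taken from the sample titles. limma 3.58.1 (R 4.3.3) was fitted with a variance trend to log2(value + 1) for genes with at least 10 in at least 3 libraries of a comparison, on the libraries compared or on all 12 for the interaction. It was tested on simulated data. Whether replicates were separate cultures of separate pools is not stated by the labels, and p-values measure the spread between these libraries. Replicate numbers were taken to pair libraries: the study's methods describe pools divided among 4 groups, and deviations from group means correlated, across genes, by 0.69, 0.67 and 0.72 (Control and oxLDL), 0.73, 0.65 and 0.68 (LPS and oxLDL+LPS), 0.42, 0.41 and 0.62 (Control and LPS) and 0.33, 0.52 and 0.66 (oxLDL and oxLDL+LPS). Lengths and positions were taken from GENCODE vM21 by symbol, and promoter sequences from RefSeq (GRCm38.p6), which matched all 6 genes. Named genes are the 6 genes, list genes that were called (up to 6 per list and comparison by smallest p), the 3 nearest genes of members changed by at least 1 in LPS against Control, and markers. The members and lists were chosen with earlier results of these data known. Alternatives were other pseudocounts, filters and scalings, the block, no variance trend, all libraries in 1 fit, *Fcgr2b* and *Fcgr3* summed, coding length, and leaving out libraries. Some list genes that enter the counts are not reported by name here.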

Additional observations from a re-analysis of the deposited data

Results flagged for a closer look

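*Fcgr3* and *Fcgr2b* were singled out for the difference between the effect of oxLDL with LPS and without it, which rests on a fit chosen after the data were seen. *Fcgr3* was higher with oxLDL in 3 of 3 replicate numbers without LPS and lower in 3 of 3 with LPS. The difference between these effects was −0.40 on the log2 scale, which was not called over all 12 libraries (adjusted p = 1.00 by limma) or with the replicate block (adjusted p = 0.705 by limma), and was called on the differences within replicate numbers (adjusted p = 0.0505 by limma). *Fcgr2b* was lower with oxLDL in both states. Its difference was −0.45 on the log2 scale, which was likewise not called over all 12 libraries (adjusted p = 1.00 by limma) or with the replicate block (adjusted p = 0.674 by limma), and was called on the differences within replicate numbers (adjusted p = 0.0673 by limma). Neither gene was called in that fit without replicate number 1 or without number 3.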

How the results depend on the processing

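With the replicate block, oxLDL against Control had 3 Fc receptor genes and 601 genes called against 0 without it, and oxLDL+LPS against LPS had 2 and 1682 against 0. The block changed no other call of the 6 genes. With all 12 libraries in 1 fit, oxLDL+LPS against LPS had 29 genes called. The differences within replicate numbers gave 2 Fc receptor genes and 535 genes for the interaction. Leaving out libraries or replicate numbers gave 0 to 2 Fc receptor genes and 0 to 1285 genes in oxLDL against Control, 0 to 4 and 0 to 2945 in oxLDL+LPS against LPS, and 0 to 4 and 0 to 1993 in the interaction. Within these ranges, the blocked fit gave 214 genes without replicate number 1 and 139 without number 2 in oxLDL against Control, 71 without number 1 in oxLDL+LPS against LPS and 9 without number 2 in the interaction, and the fit without the block gave 91 in oxLDL+LPS against LPS without oxLDL+LPS replicate 2. With *Fcgr2b* and *Fcgr3* summed, LPS against Control was at 0.66, opposite in sign to *Fcgr3*. In oxLDL+LPS against oxLDL the sum differed little, at 0.0602, and no direction is read from it. It was 9125, 11705 and 10050 in oxLDL libraries 1, 2 and 3 and 8843, 13407 and 10262 in the oxLDL+LPS libraries. These groups overlapped, and the sum fell in replicate 1. Of 104 values of the 6 genes in LPS against Control, 99 kept their side of the threshold, and of 104 in oxLDL+LPS against oxLDL, 87 did. What depth limits was not computed, since reads were not recovered, and the blocked fits rest on 3 replicate numbers.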
